A study of Mus musculus with 12 samples.

Results

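Nuclear-encoded subunits of respiratory complexes II, III and IV and of the ATP synthase (complex V) were examined by RNA-seq in mouse extensor digitorum longus (EDL), a hind limb muscle made mostly of fast-twitch fibres. A gene was included when its symbol was Sdha, Sdhb, Sdhc, Sdhd or Cyc1, or began with Uqcr or Atp5. Symbols that began with Cox, a digit from 4 to 8 and a further letter were included as well. The mean over the 12 libraries had to be at least 0.5 FPKM (fragments per kilobase of transcript, on a scale set for each library). By name 48 of the 17752 listed genes matched, and 46 met the level: 4 of complex II, 9 of complex III, 16 of complex IV and 17 of complex V. The pseudogene Atp5l-ps1 (mean 0.482 FPKM) and a second gene listed as Atp5o (ENSMUSG00000116933, mean 0.489 FPKM) lay just below the limit. The lowest included genes were Cox6b2 (1.41 FPKM) and Cox4i2 (4.42 FPKM). The same limit set which genes were tested, so all 46 were among the 12744 genes tested.

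The respiratory chain passes electrons from NADH and succinate to oxygen and pumps protons across the inner mitochondrial membrane, and the ATP synthase uses the proton gradient to make ATP. Complex II, succinate dehydrogenase, is encoded wholly in the nucleus, while complexes III, IV and V each combine nuclear subunits with subunits made from mitochondrial DNA. Several subunits of complex IV exist as a ubiquitous isoform and as an isoform of heart and skeletal muscle, and subunit c of the ATP synthase is encoded by 3 nuclear genes.

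The study deleted Nrip1, which encodes the nuclear receptor corepressor RIP140, in striated muscle. Nrip1 fl/fl mice (C57BL/6J) were crossed with C57BL/6JN mice in which the muscle creatine kinase (MCK) promoter drives Cre recombinase, a promoter active in heart and in skeletal muscle. Cre-positive mice are named strNrip1-/- and Cre-negative littermates WT, as in the study, for the groups that the sample labels call Nrip1KO and Ctrl. The mice of the training study were male and either stayed sedentary or ran on voluntary wheels from 8 weeks of age, for 8 weeks. By the study's methods the wheels were taken away some time before exercise tests and other endpoints. There were 3 libraries in each of the 4 groups (WT sedentary, strNrip1-/- sedentary, WT trained and strNrip1-/- trained), from a cohort kept apart from the animals used for the study's other tests. The labels do not say whether each library came from a separate mouse, so the p-values measure the spread between these libraries.

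Nrip1 itself went against the genotype labels. It measured 3.60, 2.55 and 3.84 FPKM in the libraries labelled WT sedentary, 15.5, 16.3 and 14.9 FPKM in those labelled strNrip1-/- sedentary, 2.53, 4.76 and 3.56 FPKM in those labelled WT trained and 20.7, 14.9 and 16.6 FPKM in those labelled strNrip1-/- trained. Nrip1 was thus higher in all 6 libraries labelled strNrip1-/-, by 2.08 ± 0.20 (log2, SE) in sedentary muscle (limma, adjusted p = 0.000277) and by 2.14 ± 0.20 in trained muscle (adjusted p = 0.000208). The loxP sites of the floxed allele flank the last exon, which holds the whole coding sequence, and a gene-level FPKM does not measure that exon apart from the rest, so the deletion itself was not checked here. Genotypes below are therefore genotypes as labelled, and every direction rests on those labels.

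The steps between low FPKM values placed the scale that divides the fragments of a library at 20.04 to 29.18 M. In every library the median ratio of a gene to its geometric mean over the libraries was 1.003, while the summed FPKM ran from 1.03 to 1.32 M. The scale thus levels the median gene, and the steps do not give the number of fragments sequenced. On this scale 3 fragments on a transcript of 2 kb amounted to 0.0623 to 0.0907 FPKM (counting error only). The 8 fast muscle markers summed to 78342 to 123256 FPKM, against 57.9 to 563 FPKM for 7 slow fibre markers, which matched the labelled tissue. In sedentary muscle 7 of the 8 fast muscle markers were lower in strNrip1-/- libraries (median log2 fold change -0.32, 1 called lower, against 1.59% of all genes). In trained muscle 7 of 8 were as well (median -0.28, 1 called lower, against 2.77% of all genes). Markers of adipocytes summed to 12.4 to 25.5 FPKM in WT sedentary, 43.1 to 116 in strNrip1-/- sedentary, 35.1 to 76.9 in WT trained and 43.8 to 113 in strNrip1-/- trained libraries, with Lep below 0.5 FPKM on average. Ucp1 and Cidea together, the brown adipocyte markers, reached 0.103 to 0.414, 0.624 to 7.11, 0.278 to 2.46 and 0.748 to 1.94 FPKM in the same order. Endothelial markers summed to 64.1 to 71.0, 71.3 to 85.6, 62.9 to 76.7 and 84.3 to 88.4 FPKM, with 2 of 5 called higher in the mean of both training states (4.90% of all genes). No marker of macrophages, Schwann cells, fibroblasts, blood or tendon was called. Their part in the results below was not tested, and in whole muscle a change in the number of cells of a type cannot be told apart from a change in RNA per cell.

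Promoter sequence was looked up in RefSeq (GRCm38.p6) for the letters bound by 3 factors known to act on nuclear genes of the respiratory chain, and 34 of the 46 genes had an entry. The 250 bases before the start were searched on both strands for GCATGCGC (nuclear respiratory factor 1, NRF1), CCGGAAG (ETS factors such as GABP) and TCAAGGTCA (estrogen-related receptors, ERR). The NRF1 letters were present in 5 genes (14.7% of 34), Atp5g2, Atp5k, Atp5l, Cox6a1 and Sdhb, against 4.90% of the promoters of 9627 tested genes. The ETS letters were present in 9 genes (26.5%, against 15.3%) and the ERR letters in 1 gene, Atp5g3 (2.94%, against 0.322%). The shorter ERR core AAGGTCA was present in Atp5g3 and Atp5l (5.88%, against 3.73%). The letters can overlap, and a match is a description of these windows only. Sequences are shown for the 3 genes that hold one of the full motifs and rose in strNrip1-/- muscle in the mean of both training states, and for Atp5g2, the gene with the lowest mean change. Atp5g2 and the remaining genes with a full motif (Atp5e, Atp5h, Atp5j, Atp5k, Atp5l, Cox6a1, Cox6b1, Uqcr11 and Uqcrh) were not called in that mean. Sdha, Uqcrc1, Uqcrfs1, Uqcr10, Cox5a, Cox7b, Cox8a, Atp5b and Atp5d had an entry without a full motif and rose. Whether a motif goes with the change was not tested. Capitals mark the motif, each sequence runs 5′ to 3′ on the strand of the gene, and stretches are cut so that they hold at most 30 bases annotated as untranslated region.
Sdhb (NRF1, chr4:140961021-140961232, plus strand, promoter and first bases of the annotated first exon): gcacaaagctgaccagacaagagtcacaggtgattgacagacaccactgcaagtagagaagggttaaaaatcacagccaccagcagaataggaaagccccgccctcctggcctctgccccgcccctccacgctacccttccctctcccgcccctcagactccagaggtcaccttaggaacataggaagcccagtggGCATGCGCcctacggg
Sdhd (ETS, chr9:50603850-50603939, minus strand, between Sdhd and the first exon of Timm8b, with which it overlaps by 30 bases): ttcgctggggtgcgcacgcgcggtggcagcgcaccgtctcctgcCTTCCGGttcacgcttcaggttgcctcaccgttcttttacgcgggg
Atp5g3 (ERR, chr2:73911327-73911576, minus strand, outside any annotated transcript): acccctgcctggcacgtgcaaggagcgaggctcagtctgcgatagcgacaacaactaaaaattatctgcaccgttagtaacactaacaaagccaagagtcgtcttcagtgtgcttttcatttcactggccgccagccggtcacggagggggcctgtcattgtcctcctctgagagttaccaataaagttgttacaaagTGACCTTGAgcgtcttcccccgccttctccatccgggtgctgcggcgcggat
Atp5g2 (NRF1 on both strands, overlapping, chr15:102671080-102671109, minus strand, within an annotated exon of a longer Atp5g2 transcript): gcgactcgttggctccggccGCGCATGCGC
The motif began 54 bases before the RefSeq start in Sdhb, 46 in Sdhd, 52 in Atp5g3 and 42 in Atp5g2. In Sdhb it nevertheless lay inside the annotated first exon, which starts at position 140961203, upstream of the RefSeq start.

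To ask whether the subunits differ between the genotypes at rest, sedentary strNrip1-/- libraries were compared with sedentary WT libraries. Calls came from limma on log2(FPKM + 0.5), a scale that understates the change of low genes, and required an adjusted p under 0.05 together with more than a 1.2-fold change, the study's own limits. The spread was estimated from all 12 libraries. All 46 subunits had a higher mean in strNrip1-/- muscle, with a median log2 fold change of 0.28 (range 0.11 to 0.62), while the median over all genes tested was -0.00. Of these, 6 rose and none fell: Atp5a1, Atp5b, Cox5a, Sdha, Sdhd and Uqcrc1. Over all 12744 genes 1.92% were called higher and 1.59% lower. In 12 of the 46 all 3 strNrip1-/- libraries lay above all 3 WT libraries, a separation seen in 9.79% of all genes. The number of subunits called in sedentary muscle depended on single libraries. It fell to 0 without WT sedentary replicate 1, to 1 without WT sedentary replicate 3, to 2 without strNrip1-/- sedentary replicate 1 and to 3 without replicate 2 of either group, and it was 0 when the sedentary libraries were fitted alone. Without strNrip1-/- sedentary replicate 2 the median log2 fold change was 0.12 and 40 of the 46 subunits had a higher mean in strNrip1-/- muscle. With every library scaled to the same summed FPKM it was 0.13 (all genes -0.14) and 41 of the 46 did.

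The same comparison was then made in trained muscle. There, 44 of the 46 subunits were higher in strNrip1-/- libraries, with a median log2 fold change of 0.38 (range -0.31 to 0.84) beside 0.01 over all genes. Of these, 11 rose and none fell: Atp5a1, Atp5b, Cox6a2, Cox7b, Cox8a, Cyc1, Sdha, Sdhb, Uqcr10, Uqcrc1 and Uqcrfs1. The background was 3.21% of genes called higher and 2.77% called lower. All 3 strNrip1-/- libraries lay above all 3 WT libraries in 26 subunits, against 13.9% of all genes, and 10 subunits were separated in this way in both training states, against 4.21%. Of the 11, 4 kept their call whichever library was left out (Atp5a1, Atp5b, Sdha and Uqcrc1), and the count came to 4 without WT trained replicate 1 or 3, without any 1 of the strNrip1-/- trained replicates or without WT sedentary replicate 3. It was 5 without WT sedentary replicate 1 or strNrip1-/- sedentary replicate 1, and 7 without WT sedentary replicate 2.

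In the mean of both training states, which uses all 12 libraries, 17 subunits rose and none fell, with a median log2 fold change of 0.34 and 45 of 46 above 0. The background was 4.90% of genes called higher and 3.91% called lower. Those that rose were Sdha, Sdhb and Sdhd of complex II, Cyc1, Uqcrc1, Uqcrc2, Uqcrfs1 and Uqcr10 of complex III, Cox4i1, Cox5a, Cox6a2, Cox7b and Cox8a of complex IV, and Atp5a1, Atp5b, Atp5d and Atp5g3 of complex V. Of these 17 calls 11 remained whichever library was left out, and the count was 11 without WT sedentary replicate 1 and 26 without strNrip1-/- sedentary replicate 3. The calls of Uqcr10 (lost in 9 of 12 cases), Cox6a2, Cox4i1 and Uqcrc2 (lost in 8 each) depended most on single libraries.

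**Figure D1:**
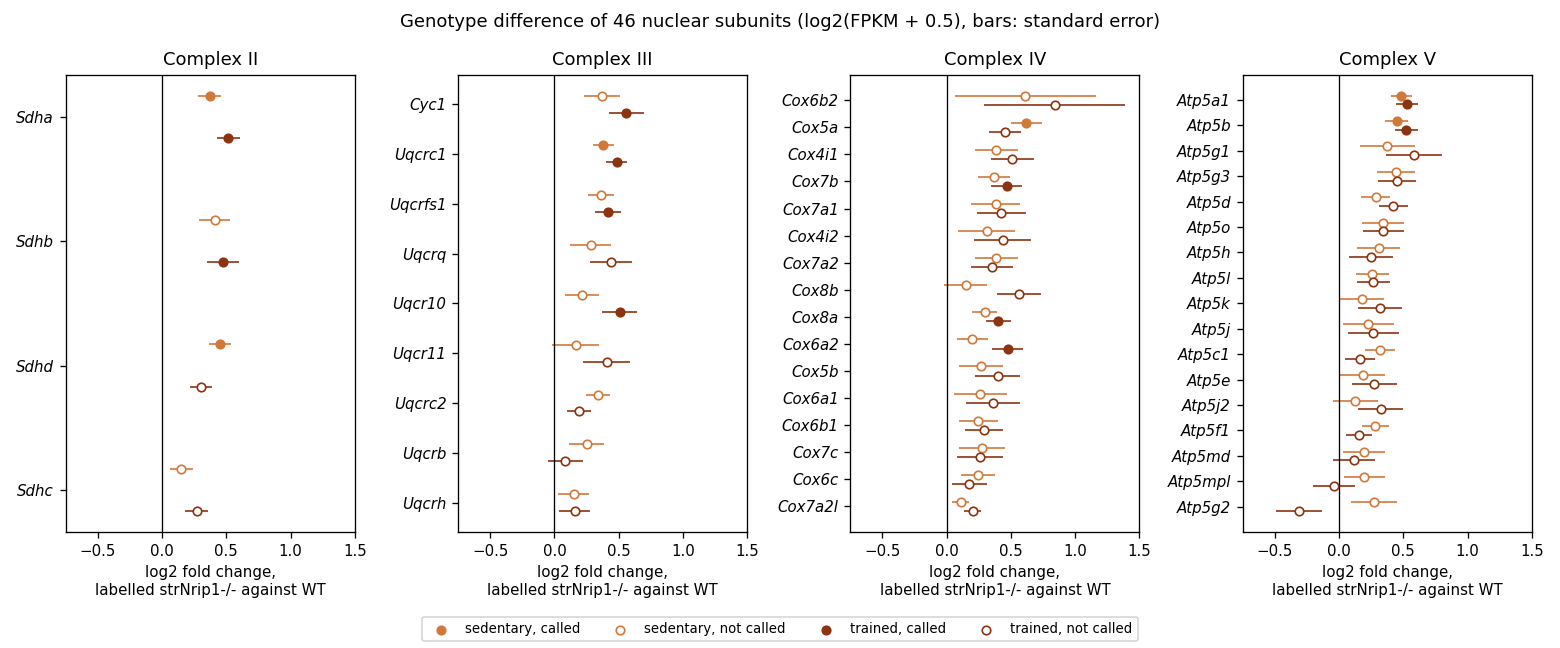
Log2 fold change of each of the 46 subunits, labelled strNrip1-/- against labelled WT, in sedentary (light) and trained (dark) muscle, by complex, with bars for the standard error and filled circles for called genes. All sedentary values (41 of 46 with every library scaled to the same summed FPKM) and 44 of the 46 trained values lie to the right of 0, and Atp5g2 in trained muscle lies farthest to the left, at -0.31.

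In complex II both subunits that carry out electron transfer outside the membrane rose. Sdha, the flavoprotein that oxidises succinate (chromosome 13, 74322254 to 74350280, GRCm38), measured 607, 629 and 593 FPKM in WT sedentary, 799, 816 and 753 FPKM in strNrip1-/- sedentary, 575, 696 and 545 FPKM in WT trained and 807, 892 and 885 FPKM in strNrip1-/- trained libraries. The genotypes did not overlap in either training state. The log2 fold change was 0.37 ± 0.09 in sedentary (limma, adjusted p = 0.0471) and 0.52 ± 0.09 in trained muscle (adjusted p = 0.00769). Sdhb, the iron-sulfur subunit that passes the electrons on, measured 456, 538 and 479 FPKM in WT sedentary and 687, 745 and 539.7 FPKM in strNrip1-/- sedentary libraries, where strNrip1-/- replicate 3 exceeded the highest WT library by little and the difference was not called (0.41 ± 0.12, adjusted p = 0.105). In trained muscle Sdhb ranged from 429 to 535 FPKM in WT and from 628 to 666 FPKM in strNrip1-/- libraries and rose by 0.47 ± 0.12 (adjusted p = 0.0444).

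The membrane anchors of complex II, which hold the ubiquinone site, differed from each other in their calls. Sdhd rose in sedentary muscle, from 198, 222 and 207 FPKM to 284, 312 and 263 FPKM (0.45 ± 0.09, limma adjusted p = 0.0156), and its trained libraries were 201 to 238 FPKM in WT and 259 to 286 FPKM in strNrip1-/- muscle (0.31 ± 0.09, adjusted p = 0.0589). Sdhc was not called in any comparison, at 194, 217 and 207 FPKM against 239, 248 and 202 FPKM in sedentary muscle and 187 to 217 FPKM against 225 to 251 FPKM in trained muscle. Whether Sdhc and Sdhd differ in their response was not tested. The mean of both states was 0.21 ± 0.06 for Sdhc (adjusted p = 0.0609) and 0.38 ± 0.06 for Sdhd (adjusted p = 0.00226).

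In complex III both nuclear redox subunits and both core proteins rose in the mean of both training states, and 4 of the 5 small subunits were not called. Uqcrc1, a core protein, measured 235, 257 and 244 FPKM in WT sedentary, 332, 339 and 289 FPKM in strNrip1-/- sedentary, 244, 279 and 235 FPKM in WT trained and 358, 349.9 and 351 FPKM in strNrip1-/- trained libraries. The genotypes were apart in both states, and the rise was 0.38 ± 0.08 at rest (limma, adjusted p = 0.0269) and 0.48 ± 0.08 after training (adjusted p = 0.00643). Cyc1, the cytochrome c1 that hands electrons to cytochrome c, measured 271, 314 and 278 FPKM in WT sedentary and 376, 442 and 308 FPKM in strNrip1-/- sedentary libraries, with replicate 3 of the latter inside the WT range. In trained muscle it was 251 to 339.7 FPKM in WT and 406 to 423 FPKM in strNrip1-/- libraries, a rise of 0.56 ± 0.14 (adjusted p = 0.0358).

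Uqcrfs1, the Rieske iron-sulfur protein, was apart in both states and rose in trained muscle (0.42 ± 0.10, limma adjusted p = 0.0349), with 0.36 ± 0.10 at rest (adjusted p = 0.0816). The second core protein, Uqcrc2, had its larger difference in sedentary muscle (257, 295 and 277 FPKM against 353, 369 and 328 FPKM), and rose in the mean of both states by 0.27 ± 0.07 (adjusted p = 0.0242). Of the 5 small subunits Uqcr10 alone was called, in trained muscle (0.51 ± 0.13, adjusted p = 0.0490), at 639, 765 and 623 FPKM in WT and 953, 929 and 989.9 FPKM in strNrip1-/- libraries. Uqcrb and Uqcrh had the smallest mean differences of the complex, 0.17 ± 0.10 (adjusted p = 0.332) and 0.16 ± 0.08 (adjusted p = 0.302), with overlapping groups in both states.

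**Figure D2:**
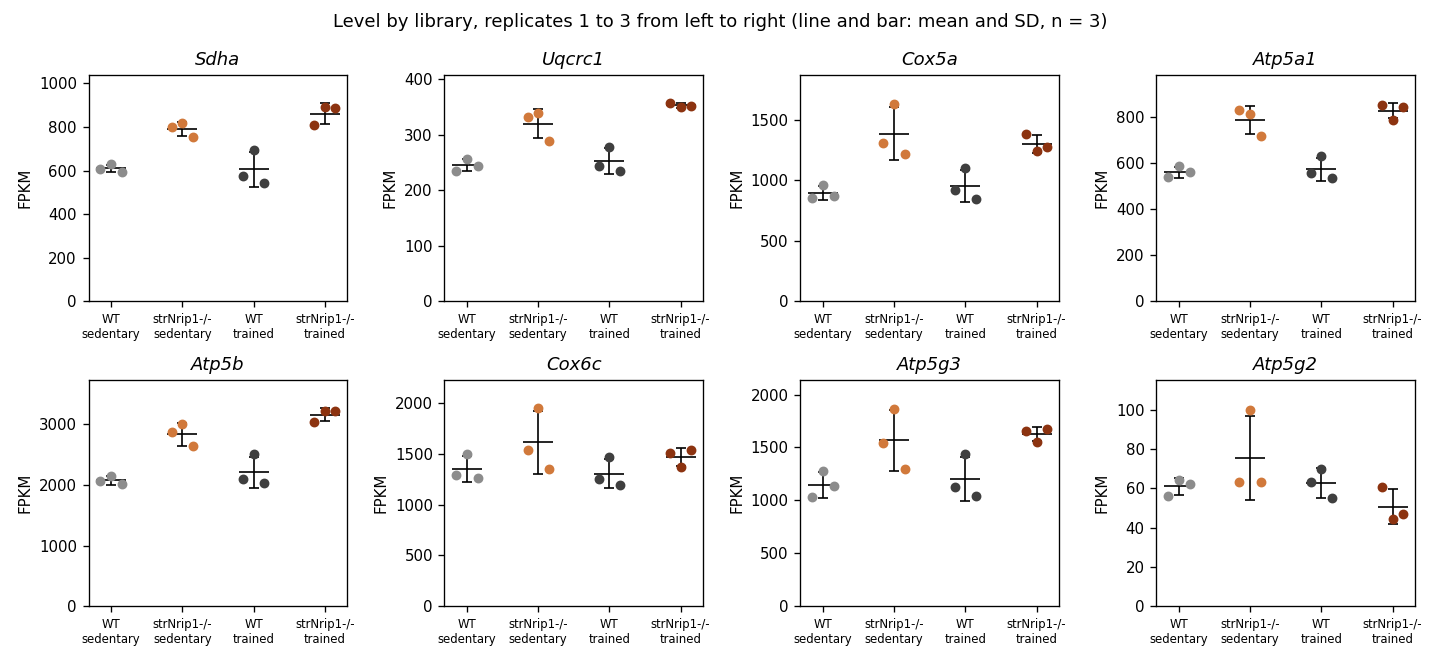
FPKM of 8 subunits in each of the 12 libraries, with the mean and SD of each group (n = 3) and axes that start at 0. For Sdha, Uqcrc1, Cox5a, Atp5a1, Atp5b and Atp5g3 every strNrip1-/- library lies above every WT library of the same training state, while the genotypes overlap for Cox6c and Atp5g2.

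In complex IV, cytochrome c oxidase, Cox5a showed the largest difference of a called subunit in sedentary muscle. Cox5a, a matrix-side subunit, measured 850.0, 965 and 872 FPKM in WT sedentary and 1310, 1631 and 1215 FPKM in strNrip1-/- sedentary libraries, a rise of 0.62 ± 0.12 (limma, adjusted p = 0.0198). In trained muscle it was 923, 1103 and 844 FPKM in WT and 1383, 1245 and 1277 FPKM in strNrip1-/- libraries, which did not overlap either (0.45 ± 0.12, adjusted p = 0.0547). Cox4i1, the common isoform of subunit 4, was 1264 to 1641 FPKM in WT trained and 1929 to 2038 FPKM in strNrip1-/- trained libraries and rose in the mean of both states (0.45 ± 0.12, adjusted p = 0.0334). Cox7b, a small membrane subunit, rose in trained muscle from 255, 315 and 257 FPKM to 378, 361 and 399 FPKM (0.47 ± 0.12, adjusted p = 0.0482). Cox5b, Cox6b1, Cox6c and Cox7c were not called, with mean differences between 0.21 and 0.33, and Cox6c, at 1198 to 1495 FPKM in WT and 1353 to 1953 FPKM in strNrip1-/- libraries over both states, had the smallest of them (0.21 ± 0.09, adjusted p = 0.195).

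A few members of complex IV families were scarce in EDL. Cox4i2, the isoform of subunit 4 known from lung, made up 0.199% to 0.324% of the summed FPKM of Cox4i1 and Cox4i2 and was not called (mean of both states 0.37 ± 0.16, limma adjusted p = 0.172). Cox6b2, the isoform known from testis, was listed at 0 in 1 WT sedentary library and reached at most 2.82 FPKM. Its log2 fold changes were 0.61 ± 0.55 in sedentary and 0.84 ± 0.55 in trained muscle, with the largest standard errors of the 46 and adjusted p = 0.679 and 0.433, and the sedentary value changed sign without that WT library. Cox7a2l, a relative of subunit 7a that takes part in joining complexes III and IV into supercomplexes, had the smallest standard error of the 46, at 98.2 to 111 FPKM in WT and 106 to 119 FPKM in strNrip1-/- libraries over both states (0.15 ± 0.05 in the mean of both states, adjusted p = 0.0579).

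The muscle isoforms of complex IV were set against their ubiquitous counterparts within each library. Cox6a2 exceeded Cox6a1 in every library, by 16.6 to 23.1 times in FPKM, Cox8b exceeded Cox8a by 14.3 to 22.3 times and Cox7a1 exceeded Cox7a2 by 4.60 to 5.43 times. The muscle isoform thus held 94.3% to 95.8% of the Cox6a pair, 93.5% to 95.7% of the Cox8 pair and 82.2% to 84.4% of the Cox7a pair. The steps between low FPKM values fitted best with 350 nt taken off each transcript length, and Cox8b and Cox7a1 have transcripts of 360 and 393 nt. Folds and shares between genes, here and in the other families, therefore depend on how FPKM corrects for length. That part was not tested. The log2 ratio of Cox6a2 to Cox6a1 was 4.52, 4.32 and 4.31 in WT sedentary, 4.50, 4.05 and 4.41 in strNrip1-/- sedentary, 4.38, 4.05 and 4.36 in WT trained and 4.35, 4.42 and 4.37 in strNrip1-/- trained libraries, with overlap in both states. The genotype difference of this ratio was 0.03, with a 95% interval from inverting the permutation test of -0.19 to 0.23 (exact two-sided permutation within training states, p = 0.755).

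The ratio of Cox7a1 to Cox7a2 was the steadiest of the pairs. It differed by 0.03 between the genotypes (95% interval -0.06 to 0.13, exact permutation p = 0.46), with values between 2.20 and 2.44 in all 12 libraries. The ratio of Cox8b to Cox8a differed by 0.01 (95% interval -0.25 to 0.21, exact permutation p = 0.955), from -0.15 in sedentary to 0.16 in trained muscle. In trained muscle all 3 strNrip1-/- libraries were above all 3 WT libraries (4.25, 4.38 and 4.37 against 4.17, 4.23 and 4.10), and with 3 against 3 the smallest p that the exact permutation can give is 0.1, which it reached. With adjustment over the 3 pairs all p-values were 0.955, and the smallest p that the permutation over both states can give is 0.005. Over the 3 pairs the intervals leave room for a shift of the isoform ratio between -0.25 and 0.23 on the log2 scale.

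Of the 3 muscle isoforms and of the 3 ubiquitous ones 1 each rose. Cox6a2 rose in trained muscle, from 1424, 1732 and 1476 FPKM to 2156, 2066 and 2194 FPKM (0.47 ± 0.12, limma adjusted p = 0.0425), and lay at 1614, 1947 and 1624 FPKM against 2003, 2282 and 1685 FPKM at rest (0.20 ± 0.12, adjusted p = 0.486). Cox8a, a ubiquitous isoform, rose in trained muscle too, from 73.4, 87.7 and 72.0 FPKM to 108, 95.9 and 104 FPKM (0.40 ± 0.10, adjusted p = 0.0380). The muscle isoforms Cox7a1 and Cox8b were not called (mean of both states 0.40 ± 0.14 and 0.36 ± 0.12, adjusted p = 0.0865 and 0.0868), nor were the ubiquitous Cox7a2 and Cox6a1 (0.37 ± 0.12 and 0.31 ± 0.15, adjusted p = 0.0706 and 0.230). The median log2 fold change in the mean of both states was 0.36 over the 3 muscle isoforms and 0.35 over the 3 ubiquitous ones.

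**Figure D3:**
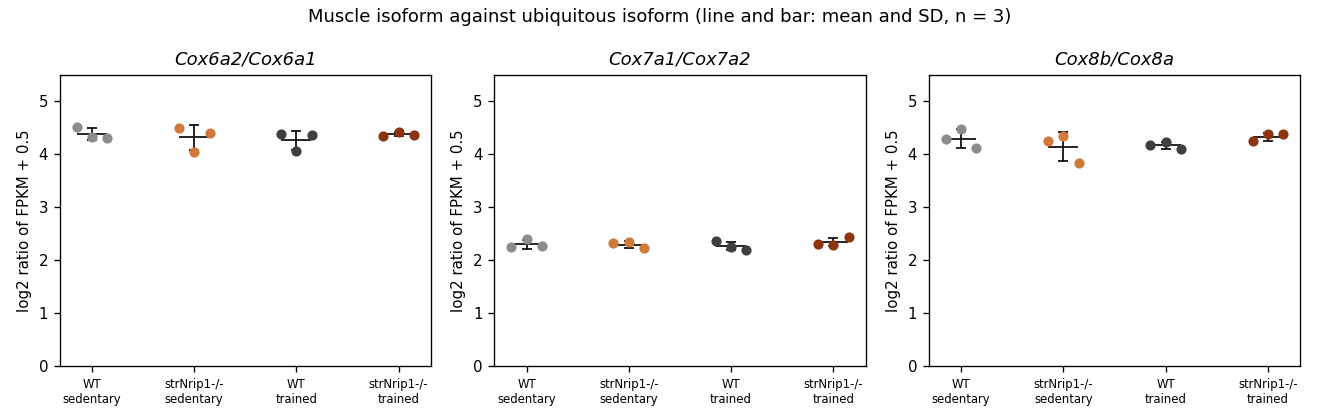
Log2 ratio of muscle to ubiquitous isoform for 3 complex IV subunits in each library, with the mean and SD of each group (n = 3). The ratios run from 4.05 to 4.52 for Cox6a2/Cox6a1, from 2.20 to 2.44 for Cox7a1/Cox7a2 and from 3.83 to 4.47 for Cox8b/Cox8a, and the genotype differences are 0.03, 0.03 and 0.01.

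In complex V the subunits of the catalytic head had the largest differences in the mean of both states. Atp5a1, the alpha subunit of the F1 head (chromosome 18, 77773729 to 77782869, GRCm38), measured 537, 585 and 559 FPKM in WT sedentary, 829, 814 and 717 FPKM in strNrip1-/- sedentary, 556, 631 and 536 FPKM in WT trained and 849.6, 788 and 843 FPKM in strNrip1-/- trained libraries. It rose by 0.49 ± 0.08 at rest (limma, adjusted p = 0.00920) and by 0.53 ± 0.08 after training (adjusted p = 0.00447), the lowest adjusted p of all 46 subunits in each state. Atp5b, the beta subunit that forms the catalytic sites with Atp5a1, was the most abundant of the 46 transcripts per length, at 2064, 2150 and 2009 FPKM in WT sedentary, 2867, 2997 and 2634 FPKM in strNrip1-/- sedentary, 2090, 2504 and 2024 FPKM in WT trained and 3034, 3225 and 3221 FPKM in strNrip1-/- trained libraries. Its rise was 0.45 ± 0.09 (adjusted p = 0.0229) and 0.52 ± 0.09 (adjusted p = 0.00799), with no overlap in either state.

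Of the other subunits of F1 only 1 was called. Atp5d, the delta subunit of the central stalk, rose in the mean of both states (0.35 ± 0.08, limma adjusted p = 0.0178), at 346 to 442 FPKM in WT trained and 501 to 519 FPKM in strNrip1-/- trained libraries. The central stalk subunits Atp5c1 (gamma) and Atp5e (epsilon) were not called, at 0.24 ± 0.08 and 0.23 ± 0.13 in the mean of both states. None of the 4 peripheral stalk subunits (Atp5f1, Atp5h, Atp5j and Atp5o), which hold the head still, was called, with mean differences from 0.22 to 0.34. The same was true of the 5 small membrane subunits, which had mean differences from 0.08 for Atp5mpl to 0.26 for Atp5l. Atp5mpl measured 685, 879 and 699 FPKM in WT trained and 772, 675 and 744 FPKM in strNrip1-/- trained libraries (-0.04 ± 0.16, adjusted p = 0.927).

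The genes of subunit c, which forms the rotating ring and whose mature protein is the same whichever gene encodes it differed widely in level. Atp5g1 supplied 54.3% and Atp5g3 43.7% of the summed FPKM of the family on average over the 12 libraries, and Atp5g2 2.02%. Atp5g3 rose in the mean of both states (0.45 ± 0.10, limma adjusted p = 0.0185), at 1035, 1273 and 1131 FPKM against 1545, 1868 and 1294 FPKM in sedentary and 1126, 1441 and 1040 FPKM against 1658, 1552 and 1678 FPKM in trained muscle. Atp5g1 was 1219 to 1760 FPKM in WT trained and 2011 to 2190 FPKM in strNrip1-/- trained libraries and was not called (mean of both states 0.48 ± 0.15, adjusted p = 0.0696).

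Atp5g2 was the only subunit whose difference in the mean of both states was below 0 (-0.02 ± 0.13, limma adjusted p = 0.955). It measured 56.1, 64.4 and 62.4 FPKM in WT sedentary, 63.1, 100.1 and 63.2 FPKM in strNrip1-/- sedentary, 63.2, 69.9 and 54.9 FPKM in WT trained and 60.8, 44.2 and 46.9 FPKM in strNrip1-/- trained libraries. The strNrip1-/- trained libraries overlapped WT trained by 1 library, and all 3 lay below every strNrip1-/- sedentary library. Trained against sedentary strNrip1-/- muscle gave -0.55 ± 0.18 (adjusted p = 0.282) and the interaction of genotype and training -0.59 ± 0.25 (adjusted p = 0.633), so neither was called. As a share of the family Atp5g2 was 2.29% ± 0.161 (SD, n = 3) in WT sedentary, 2.10% ± 0.239 in strNrip1-/- sedentary, 2.36% ± 0.213 in WT trained and 1.34% ± 0.223 in strNrip1-/- trained libraries, and the highest of the last group, 1.60%, lay below the lowest of the other libraries, 1.83%.

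Training did not change any subunit past the test. In WT muscle 14 of the 46 subunits were higher and 32 lower after training, with a median log2 fold change of -0.04, none with an unadjusted p under 0.05 and a lowest adjusted p of 0.758 (limma). In strNrip1-/- muscle the median was -0.01, 1 subunit had an unadjusted p under 0.05 (Atp5g2) and the lowest adjusted p was 0.282. The interaction had a median of 0.07, with 1 subunit at an unadjusted p under 0.05 (Atp5g2) and a lowest adjusted p of 0.633. These directions held under some alternatives only. With GC and length trends removed 29 of 46 subunits were higher after training in WT and 40 in strNrip1-/- muscle (median 0.05 in each). Without strNrip1-/- sedentary replicate 2, 43 were higher in strNrip1-/- muscle (0.13). Without strNrip1-/- sedentary replicate 3 the interaction was above 0 in 15 (-0.07). In these 3 comparisons 0% of all 12744 genes were called, while 1061, 1544 and 989 genes had an unadjusted p under 0.05. A p that misses the threshold does not show that values are equal. The part of the time without wheels before the endpoints was not tested. The median standard error of a subunit was 0.14 for a training difference and 0.20 for the interaction.

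The complexes were alike in direction and differed in how many subunits were called. In sedentary muscle 2 of 4 subunits of complex II, 1 of 9 of complex III, 1 of 16 of complex IV and 2 of 17 of complex V rose, and in trained muscle 2, 4, 3 and 2 did (1.92% and 3.21% of all genes). The median log2 fold changes were 0.39, 0.28, 0.28 and 0.28 in sedentary and 0.39, 0.42, 0.41 and 0.28 in trained muscle. Differences between complexes were not tested. The kit did not mark strand, so reads of genes that overlap on opposite strands cannot be told apart. The values of Atp5c1, Atp5k, Atp5l and Uqcrh are uncertain because annotated pseudogenes bear their names and may share reads. Pseudogenes under other names were not counted, so further subunits may be uncertain in the same way. Summed over its 4 subunits, complex II came to 1516 ± 79.5 FPKM (SD, n = 3) in WT sedentary, 1963 ± 186 in strNrip1-/- sedentary, 1495 ± 169 in WT trained and 2025 ± 31.6 in strNrip1-/- trained libraries. The 17 subunits of complex V came to 14434 ± 1396, 18140 ± 3637, 14248 ± 2195 and 17987 ± 619 FPKM in the same order.

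Other genes of the pathway were counted for comparison. Of the 37 nuclear subunits of complex I 1 rose in sedentary and 2 in trained muscle, and 9 did in the mean of both states. Over all genes 1.92%, 3.21% and 4.90% were called higher, and in the single states the complex I counts lay near that share. The complex I subunits had median log2 fold changes of 0.22, 0.27 and 0.24. The largest changes among them in the mean of both states were those of Ndufa8 (0.45 ± 0.12, limma adjusted p = 0.0299), Ndufs4 (0.41 ± 0.09, adjusted p = 0.0121) and Ndufb5 (0.40 ± 0.09, adjusted p = 0.0151). None of the 13 mitochondrially encoded subunits was called in either state. Their median was 0.41 in sedentary muscle, where 12 of the 13 were apart, and -0.03 in trained muscle, where none was (all genes: strNrip1-/- above WT in 9.79% and 13.9%). Their summed level was 42.2% to 44.6% of all FPKM in WT sedentary, 51.2% to 52.8% in strNrip1-/- sedentary, 43.8% to 47.3% in WT trained and 43.7% to 45.7% in strNrip1-/- trained libraries. Nuclear subunits of complexes II to V took 4.80% to 5.60% of the FPKM of nuclear genes in WT and 6.27% to 7.52% in strNrip1-/- libraries of both states.

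Of 37 assembly factors of complexes II to V, 6 rose in the mean of both states, in which 4.90% of all genes were called higher. Cox11, which delivers copper to complex IV, rose from 23.6, 26.8 and 22.9 FPKM to 37.7, 48.4 and 35.2 FPKM in sedentary muscle and by 0.73 ± 0.08 in the mean of both states (limma, adjusted p = 0.000280). Uqcc1, needed to build complex III, rose by 0.59 ± 0.05 (adjusted p = 5.14e-05), and Atpaf2, a chaperone of the F1 head, by 0.49 ± 0.12 (adjusted p = 0.0222). Of 7 electron carriers and translocases 5 rose, led by Etfa, Etfdh and Etfb, which bring electrons from fatty acid oxidation to ubiquinone (0.66 ± 0.07, 0.65 ± 0.05 and 0.44 ± 0.09, adjusted p = 0.000243, 1.79e-05 and 0.0104).

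Of 14 regulators of respiratory genes 4 rose in the mean of both states and none fell, against 4.90% of all genes called higher and 3.91% called lower. Ppargc1b, a coactivator (0.87 ± 0.20, limma adjusted p = 0.0175), Esrra, the estrogen-related receptor ERRα (0.62 ± 0.05, adjusted p = 2.54e-05), and Esrrb (0.62 ± 0.08, adjusted p = 0.000931) had the largest changes. Esrra measured 69.8 to 71.3 FPKM in WT sedentary, 94.0 to 104 FPKM in strNrip1-/- sedentary, 65.1 to 74.5 FPKM in WT trained and 114 to 127 FPKM in strNrip1-/- trained libraries. Ppargc1b overlapped between the genotypes in sedentary muscle (2.63 to 4.46 against 3.99 to 7.05 FPKM) and was not called there (0.57 ± 0.28, limma adjusted p = 0.358). In trained muscle it was called (1.17 ± 0.28, adjusted p = 0.0341). Esrrb was low, at 1.24 to 2.66 FPKM over the libraries.

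**Figure D4:**
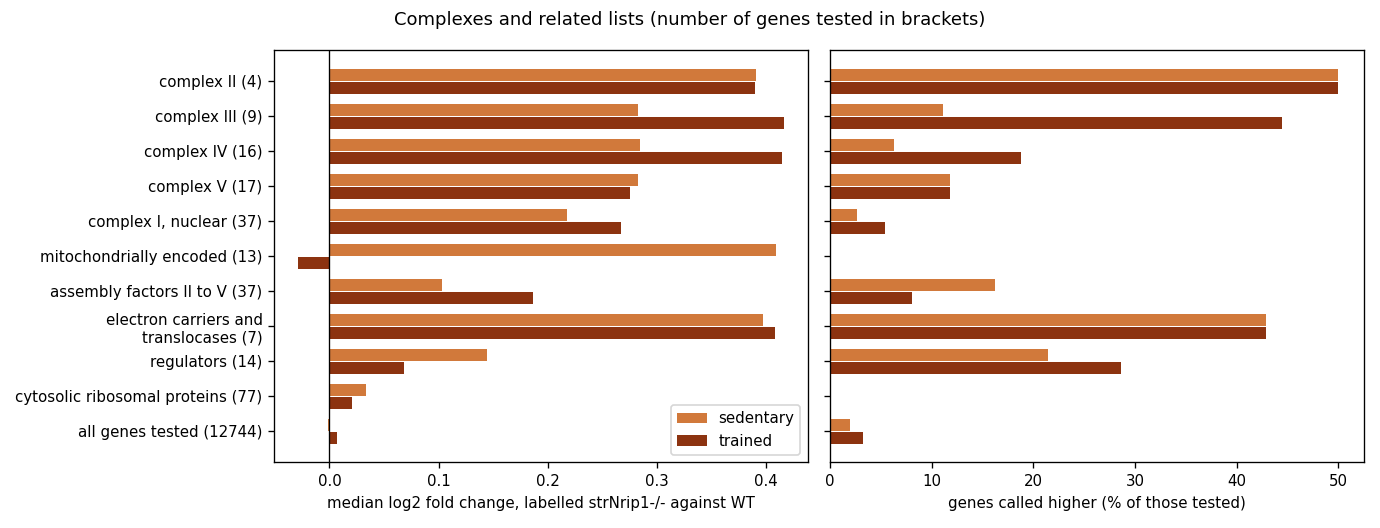
Median log2 fold change (left) and percentage of genes called higher (right), labelled strNrip1-/- against labelled WT, for each complex and for related lists, in sedentary (light) and trained (dark) muscle. The 4 complexes have medians from 0.28 to 0.42 in both states, while the mitochondrially encoded genes have 0.41 in sedentary and -0.03 in trained muscle and cytosolic ribosomal proteins lie near 0.

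The subunits moved together between replicates of a group. In WT sedentary libraries replicate 2 held the highest value of its group for 44 of the 46 subunits, in strNrip1-/- sedentary replicate 2 for 45 and in WT trained replicate 2 for 45, while strNrip1-/- sedentary replicate 3 held the lowest for 43. The median deviation of the subunits from their group mean, on the log2 scale, was 0.15 in WT sedentary replicate 2, 0.28 in strNrip1-/- sedentary replicate 2, -0.26 in strNrip1-/- sedentary replicate 3 and 0.23 in WT trained replicate 2, and it stayed between -0.07 and 0.04 in the strNrip1-/- trained libraries. Other genes with short transcripts moved alike. The 219 genes outside the respiratory and cytosolic ribosomal lists with transcripts under 700 nt and a mean of at least 5 FPKM deviated by 0.12, 0.29, -0.21 and 0.16 in the same 4 libraries, and 2631 genes over 3000 nt by -0.045, -0.067, 0.051 and -0.027. In the mean of both states these 2 sets had median genotype differences of 0.06 and -0.02, against 0.34 for the subunits. The part of RNA quality in the subunits' values was not tested, and the length limits were chosen after seeing the data.

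More of the longer transcripts were called. Of the 24 subunits with transcripts of 700 nt or more 13 were called in the mean of both states. Of the 22 shorter ones 4 were called. The median log2 fold changes were 0.38 and 0.27, and the median standard errors 0.08 and 0.12. Over all 12744 genes, whatever their length, 4.90% were called higher in that mean. With trends over GC content and length removed from each library, 24 subunits were called in the mean of both states, 12 in sedentary and 15 in trained muscle. Their medians were 0.29, 0.28 and 0.30 over the 46 subunits. Over all genes 614, 313 and 388 were called higher in the same order, against 624, 245 and 409 in the main fit. Across the 46 subunits the log2 fold change in the mean of both states had a Spearman correlation of 0.36 with transcript length and 0.07 with level, given as a description over genes that share their libraries.

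**Figure D5:**
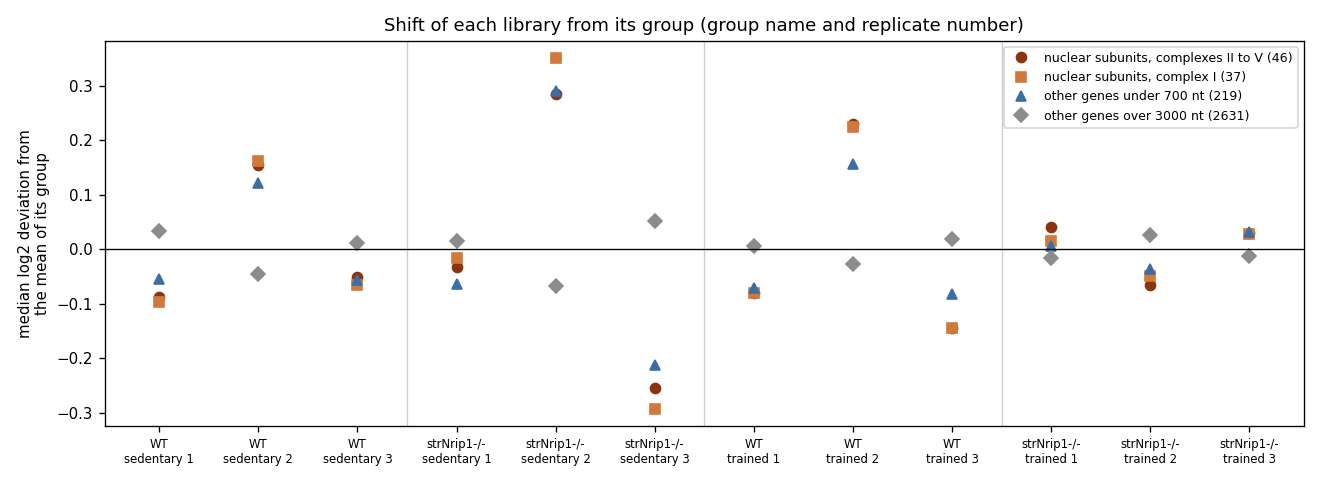
Median log2 deviation of each library from the mean of its group, for the 46 subunits, for 37 nuclear subunits of complex I, for 219 other genes with transcripts under 700 nt and for 2631 other genes over 3000 nt. The subunits reach 0.28 in strNrip1-/- sedentary replicate 2 and -0.26 in replicate 3, complex I and the other short transcripts move the same way, and the long transcripts stay between -0.067 and 0.051.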

How the data were processed

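Total RNA of EDL muscle was made into NEBNext Ultra libraries (no strand information) for 12 samples, 3 in each of 4 groups assigned from the sample labels. The deposited table holds FPKM per gene and library, which the authors made with Salmon (1.10.2 in the submitters' processing notes) on mm10, tximport and DESeq2 (1.44.0 in the same notes). The annotation release and the function that gave FPKM are not given in the sources used here. The 8 columns of the authors' own fold changes and adjusted p-values were not used.

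FPKM are not counts, so genes that averaged 0.5 FPKM or more entered a limma 3.58.1 fit (R 4.3.3) on log2(FPKM + 0.5), with 4 group means, a variance prior that follows the mean, two-sided tests and Benjamini-Hochberg adjustment over the 12744 genes tested. A gene was called at an adjusted p under 0.05 with over 1.2-fold change, and the interaction at the adjusted p alone. Isoform ratios were tested by exact permutation of genotypes within training state, enumerated in full in Python 3.11.15. The enumeration was checked against scipy 1.17.1 on random values. On simulated data with 12744 genes, limma called 39% of genes changed by 0.5 (log2) in the sedentary, 48% in the trained and 69% in the mean comparison. The simulated noise was independent between genes and equally wide in all groups, while the subunits moved together between libraries. The change of 0.5 also exceeded the median of the subunits (0.28, 0.38 and 0.34). These shares therefore do not give the power for the subunits.

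The scale of the libraries (20.04 to 29.18 M) was estimated from steps between low FPKM values of genes with 1 transcript. It is not the number of fragments sequenced, and FPKM of low genes carry more counting error. The members, gene lists and motifs were chosen with earlier results of these data known. Genes named in the text are Nrip1, the complex II subunits, the isoform families, in each complex the 3 highest and 2 lowest by mean genotype difference, subunits called lower or called for training or the interaction (none), those next to the 0.5 FPKM limit, and the 3 called genes with the largest mean genotype difference in each related list. Other subunits, among them the remaining called ones, were chosen after their values were seen. Alternatives covered the pseudocount, the filter, scaling, the variance prior, the libraries in the fit, GC content and length, the replicate number as a block, and each library left out.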

Additional observations from a re-analysis of the deposited data

How the results depend on the processing

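No subunit was called lower in any genotype comparison under any alternative, and the direction of the genotype median was the same in all of them. The medians for training and for the interaction changed sign under some alternatives. The number called higher moved with scaling. In sedentary muscle (6) it was 24 with libraries scaled to the same nuclear sum, 15 with quantile normalization, 12 with GC and length trends removed and 0 with its own libraries alone. Over all genes 245 were called higher in the main fit, and 397, 298, 313 and 106 under these settings. In trained muscle (11) it was 6 with no filter, 28 with the same sum, 24 with the same nuclear sum, 18 with quantile normalization and 4 with a variance prior that ignores the mean. Over all genes 409 were called higher in the main fit, and 359, 549, 466, 410 and 337 under these settings. In the mean of both states (17) it was 37 with the same nuclear sum, where 827 of all genes were called higher, against 624 in the main fit. Training in strNrip1-/- muscle gave 4 calls with the same sum, where 143 of all genes were called higher and 7 lower, and 0 otherwise. Scaling to the same sum shifted the median of all genes by -0.14 in the sedentary comparison, by 0.16 for training in strNrip1-/- muscle and by 0.20 for the interaction. The share of all calls that were higher was 54.8% (sedentary), 53.7% (trained) and 55.6% (mean), 18.6%, 80.9% and 45.02% with the same sum, and 82.7%, 75.8% and 77.5% with the same nuclear sum.

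With each library left out in turn, the calls ranged from 0 to 7 (sedentary), 4 to 16 (trained) and 11 to 26 (mean), and the median log2 fold change from 0.12 to 0.42, 0.29 to 0.51 and 0.25 to 0.40. The difference of the Cox6a2/Cox6a1 ratio ranged from -0.0266 to 0.0929 and that of Cox8b/Cox8a from -0.0431 to 0.0839 (-0.0160 with quantile normalization). Log2 fold changes of some subunits that were not called changed sign when a library was left out: Atp5g2 (mean, -0.129 to 0.0364), Atp5mpl (trained, -0.104 to 0.0759, and mean, -0.0167 to 0.1497), Cox6b2 (sedentary, -0.0445 to 0.998) and Cox8b (sedentary, -0.0439 to 0.314), beside Atp5e, Atp5j, Atp5j2, Atp5k and Uqcr11 (sedentary, -0.0546 to -0.0025 without strNrip1-/- sedentary replicate 2). Under other settings this held for Atp5g2 (mean, 0.0395, same nuclear sum), Atp5mpl (trained, 0.0249, same sum, and mean, -0.0698, quantile), Uqcrb, Atp5c1 and Atp5md (trained, -0.0753, -0.0053 and -0.0045, quantile) and, in sedentary muscle with the same sum, Atp5j2 (-0.0288), Cox7a2l (-0.0472), Cox8b (-0.0101), Sdhc (-0.0057) and Uqcrh (-0.0056). The causes were not tested.

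Over all genes most same-numbered libraries did not deviate together (18 pairs, r from -0.105 to 0.24, 5 above 0.1). Of the 12 libraries 4 correlated best with their own number. Replicate 2 of WT sedentary, strNrip1-/- sedentary and WT trained did deviate together weakly (r of 0.16, 0.20 and 0.24). Replicate 2 of strNrip1-/- trained did not deviate with them (r from -0.105 to -0.0285). These correlations cannot settle whether the numbers mark a pairing, and the main fit used none. With the replicate block 7, 15 and 24 subunits were called (sedentary, trained, mean) and none for training or the interaction, and with the block, GC and length together 15, 17 and 26. Over all genes 241, 426 and 635 were called higher with the block, and 309, 395 and 596 with the block, GC and length. The scale of each library is an estimate, and with 3 libraries a group an exact test within 1 training state cannot go below 0.1.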
